A study of Mus musculus with 18 samples.

Results

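Transient GATA6-only regions in naive chromatin were 1052 of the 42403 GATA6 binding regions (2.48%) listed for embryonic stem (ES) cells that are driven towards Primitive Endoderm (PrE). They were chosen by 4 deposited classes of each region. Their GATA6 signal over the time course fell in the Transient cluster. No pluripotency transcription factor (PTF, that is OCT4, SOX2 or ESRRB) and no SOX17 was called there. Their histone state was the one named naive. According to the paper it rests on public ENCODE data of ES cells, so it was not measured in the cells of this series. How the state named naive was marked was not given in the sources used here. These values of binding and histone marks chose the regions, so GATA6 dynamics, SOX17 and PTF binding and chromatin state are given as a description and were not tested. The classes come without a deposited cut-off, so no values just inside and just outside the rule can be given.

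The series itself holds 18 MNase-seq libraries in 6 groups of 3, untreated cells (0 h) and cells after 8, 16, 24, 48 and 96 h of doxycycline (Dox). All are mouse KH2 ES cells of a C57BL/6 x 129/Sv background with a Dox-inducible Gata6 transgene, grown on embryonic fibroblast feeders, and the untreated cells carry the transgene too. The cells derive from selected transgenic clones. MNase values enter nowhere, since the columns used hold none of them, and the measurements below are classes, positions, motif scores and genome sequence of regions, and no sample of the series enters a comparison. The columns used give no read counts, so the depth behind each class is unknown.

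GATA6 is a zinc finger pioneer factor that recognises the sequence AGATAA and close relatives, can bind it on nucleosomal DNA, and drives the segregation of PrE from the epiblast. OCT4 and SOX2 bind a composite motif together and sustain pluripotency, ESRRB is an orphan nuclear receptor of the same network, and SOX17 is an endoderm factor induced during PrE formation. A motif is the letter pattern such a factor recognises, and most motif matches in a genome are not bound.

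The 13-base GATA6 motif is shown first, since several of the measures described below use it. Of the 1052 regions, 1011 held at least 1 GATA6 motif and 1005 had a best motif of the full length of the matrix. These 1005 best motifs had 829 different sequences, 735 of which occurred once. The most frequent are printed 5′ to 3′ with the 7 bases from the AGATA core onwards in capitals:
found in 28 regions: aggAGATAAGaat
found in 14 regions: ggcAGATAAAagg
found in 7 regions: aagAGATAAGgaa
also found in 7 regions: ataAGATAAGata

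The first had a score of 14.4, the second 10.2, the third 13.6 and the last 13.8, where the score is the deposited log-odds match to the GATA6 matrix. The core AGATAA stood in 768 of the 1005 best motifs (76.4%) and TGATAA in 154 (15.3%). AGATAA made up 65.1% of best motifs in Transient GATA6-only regions of other histone states, 74.2% in Early&Constant GATA6-only naive regions, 60.1% in Late GATA6-only naive regions and 58.1% in all remaining regions. The sequence AGATAAG, searched on both strands and contained in the GATA6 motif, was present within 200 bp around the summit in 502 of the 1052 regions (47.7%), against 27.8% of all regions. The summit is the deposited base of highest GATA6 signal.

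Windows of 200 bp around the summit are given for the 3 regions with the highest best GATA6 score, because they show where the strongest motifs lie relative to the summit, which is the middle of each window. GATA6 motif hits are in capitals, and all sequence is from the plus strand of GRCm38 (RefSeq):
chrX:77426398-77426597: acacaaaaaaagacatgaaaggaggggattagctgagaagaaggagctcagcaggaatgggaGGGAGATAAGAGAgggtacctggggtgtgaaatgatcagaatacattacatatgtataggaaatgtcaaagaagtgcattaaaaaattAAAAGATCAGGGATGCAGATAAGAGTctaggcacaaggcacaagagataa
chrX:129472216-129472415: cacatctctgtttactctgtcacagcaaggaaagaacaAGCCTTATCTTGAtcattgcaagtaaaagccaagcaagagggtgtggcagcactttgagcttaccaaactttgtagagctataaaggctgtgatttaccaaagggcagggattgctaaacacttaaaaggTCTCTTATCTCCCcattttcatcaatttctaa
chr5:23585372-23585571: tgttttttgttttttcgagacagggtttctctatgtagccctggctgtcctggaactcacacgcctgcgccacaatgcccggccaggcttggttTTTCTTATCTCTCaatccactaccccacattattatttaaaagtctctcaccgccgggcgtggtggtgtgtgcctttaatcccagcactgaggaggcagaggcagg

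The first of these regions, chrX:77426117-77426900, was intergenic, 84515 bp from the start of Tbl1x, and held 4 GATA6 motifs. Its best motif scored 15.2 and was centred at -32 bp from the summit. That of chrX:129472067-129472490, an intergenic region with 2 GATA6 motifs, also scored 15.2 and was centred at 74 bp. The third, chr5:23585286-23585678, lay in an intron of Srpk2, a kinase of splicing factors. It had a single GATA6 motif, which scored 15.1 and was centred 0 bp from the summit. All 3 were closed before induction, and each held an OCT4:SOX2 motif in its window, although no PTF was called there.

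GATA6 motifs were frequent and of high score in the Transient GATA6-only naive regions. A GATA6 motif lay in the summit window of 971 of 1052 regions (92.3%, 95% Wilson interval 90.5 to 93.8, which covers counting error only). The share was 82.8% in Transient GATA6-only regions of other histone states (n = 7885), 96.1% in Early&Constant GATA6-only naive regions (n = 583), 84.2% in Late GATA6-only naive regions (n = 1171) and 34.4% in 2050 windows 3 kb to either side of the regions themselves. Relative to Transient regions in other states the odds were higher by 1.32 on the log2 scale (SE 0.16, adjusted p = 8.88e-16, logistic regression over all regions with errors clustered by chromosome), and relative to Late naive regions by 1.17 (SE 0.21, adjusted p = 7.46e-08). With windows of 100 bp these 2 differences were 0.68 and 0.44. Relative to Early&Constant naive regions they fell by 1.02 (SE 0.43, adjusted p = 0.0239), a difference that missed the threshold without chromosome X (-0.95, adjusted p = 0.0545). Over whole regions, the odds of holding a GATA6 motif were lower than in Early&Constant naive regions by a log2 ratio of -2.23 (SE 0.61, adjusted p = 0.000425). They were higher than in Late naive regions by 0.73 (SE 0.29, adjusted p = 0.0145), but not with region width in the model (0.38, adjusted p = 0.242). Transient GATA6-only regions of other states were closed before induction in 50.5%, against 98.3% of the 1052 regions. No model comparing the sets adjusted for accessibility. The paper reports denser and better GATA6 motifs at less accessible Transient sites, and the part of accessibility in these differences was not tested. P-values here and below come from a normal distribution over few chromosomes and can be too small.

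**Figure D1:**
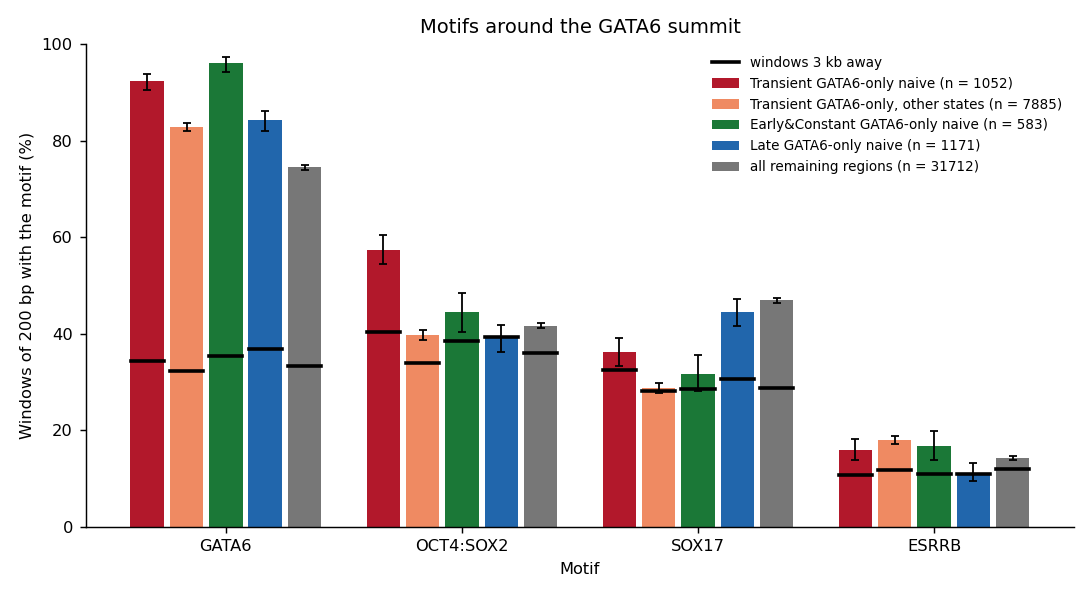
Bars give the share of regions with each motif in the 200 bp around the GATA6 summit (y axis, %) for 5 sets of regions, error bars are 95% Wilson intervals, and black lines give the share in windows 3 kb away that overlap no GATA6 region. In Transient GATA6-only naive regions the OCT4:SOX2 bar (57.4%) stands above those of the 4 other sets, and the GATA6 bar (92.3%) is below the Early&Constant naive bar alone.

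The best GATA6 motif scored 11.8 ± 2.2 (SD, n = 1011 regions with a motif) in Transient GATA6-only naive regions. Mean scores were 10.8 in Transient GATA6-only regions of other states, 11.9 in Early&Constant naive, 10.4 in Late naive and 10.3 in all remaining regions. The score was higher than in Transient regions of other states by 0.96 (SE 0.08, adjusted p = 1.41e-31, linear regression with clustered errors) and than in Late naive regions by 1.40 (SE 0.10, adjusted p = 5.30e-43). The difference from Early&Constant naive regions was -0.10, with a 95% interval from -0.32 to 0.12 (adjusted p = 0.404). With the mean score of all motifs in place of the best, that difference became 0.18 (adjusted p = 0.0441), and the difference from Transient regions of other states shrank to 0.29. These differences were not adjusted for accessibility.

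**Figure D2:**
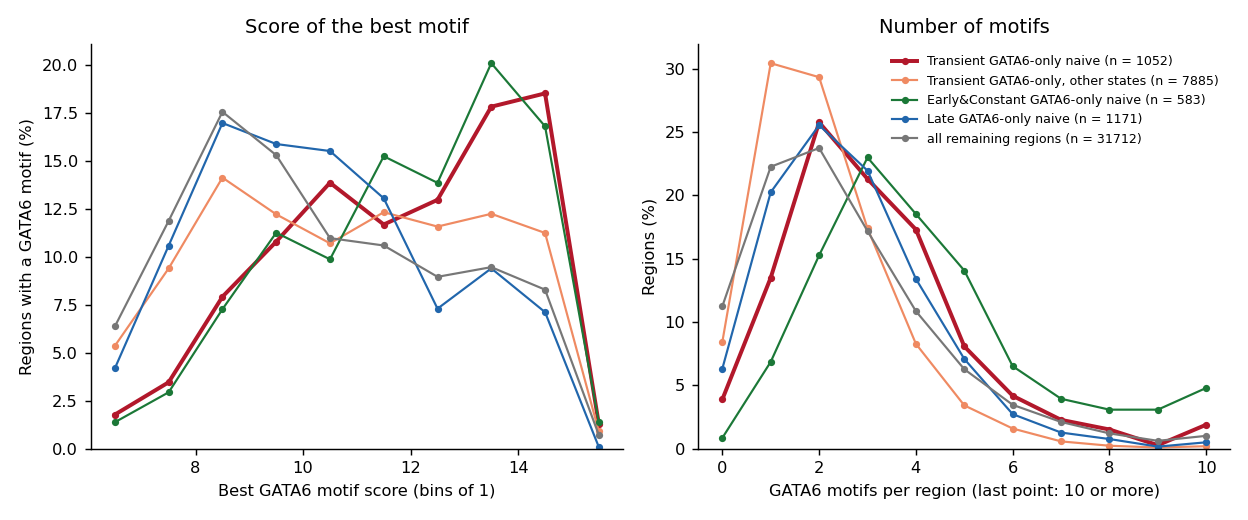
The left panel plots the share of regions with a motif (y axis, %) by the score of the best GATA6 motif in bins of 1, and the right panel the share of regions by their number of GATA6 motifs, for the same 5 sets. Transient GATA6-only naive regions peak at scores from 14 to 15 (18.5%) and at 2 motifs (25.8%), and Early&Constant naive regions extend further towards many motifs.

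The regions held 3.23 ± 2.51 GATA6 motifs (mean ± SD, n = 1052), with a median of 3 and a range from 0 to 35. Early&Constant naive regions held more, 4.35 on average, and the difference of -1.12 (SE 0.13, adjusted p = 5.31e-17) was larger than its error. Transient regions of other states held 2.10 and Late naive regions 2.65, lower by 1.13 (SE 0.12, adjusted p = 3.94e-20) and 0.58 (SE 0.11, adjusted p = 2.36e-07). Transient naive regions were wider than Late naive regions (median 493.5 against 418 bp), and per kb of region the numbers were 6.07 and 6.03, a difference of 0.03 (adjusted p = 0.859). Most Transient naive regions, 819, had 1 to 4 motifs, and 20 had 10 or more.

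Windows of 2 of the 3 regions with the most motifs are printed as examples. GATA6 motif hits are again in capitals:
chr12:71616549-71616748: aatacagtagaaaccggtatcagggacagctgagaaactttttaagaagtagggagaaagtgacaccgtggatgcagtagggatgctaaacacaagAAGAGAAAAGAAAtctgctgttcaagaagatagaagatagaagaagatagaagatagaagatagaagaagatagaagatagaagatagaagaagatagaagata
chr13:91115545-91115744: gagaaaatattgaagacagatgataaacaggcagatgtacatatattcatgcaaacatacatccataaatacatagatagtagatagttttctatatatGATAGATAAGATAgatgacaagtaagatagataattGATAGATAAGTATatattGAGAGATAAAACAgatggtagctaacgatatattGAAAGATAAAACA

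The first, chr12:71616531-71617396 in an intron of 9630002D21Rik, held 35 GATA6 motifs, of which 1 fell in the window, and its best score was 9.84. The other, chr13:91114837-91116049 in an intron of the autophagy gene Atg10, held 18 motifs, 4 of them in the window, and scored 14.7. Overlapping hits are counted separately, so these numbers are not numbers of independent sites. A run of 3 copies of GATA without a gap, searched on both strands, was present in 16 windows (1.52%), against 0.224% of windows of all regions, 2.06% of Early&Constant naive and 0.427% of Late naive windows. Of the 20 regions with 10 or more motifs, 0 held such a run in the window.

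The best GATA6 motif lay close to the summit. Its centre was a median of 41 bp away (quartiles 18 and 78 bp, n = 1011), and 58.1% of regions had it within 50 bp. The share was 59.2% in Transient regions of other states, 61.4% in Early&Constant naive and 52.4% in Late naive regions. The log2 odds were higher than in Late naive regions by 0.33 (SE 0.09, adjusted p = 0.000559) and by 0.68 in regions of middle width, while the differences from Transient regions of other states (-0.07, 95% interval -0.25 to 0.12) and from Early&Constant naive regions (-0.20, 95% interval -0.47 to 0.07) were within error.

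**Figure D3:**
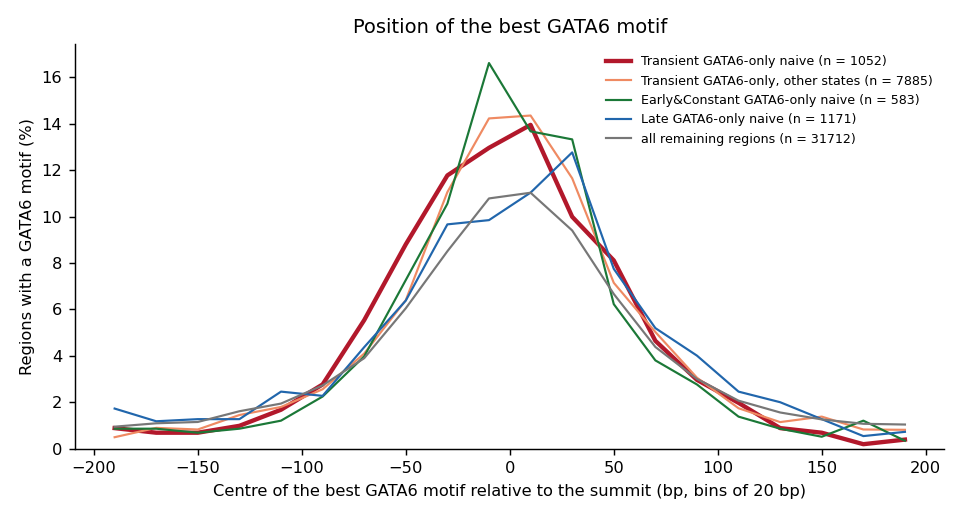
Lines give the share of regions with a motif (y axis, %) whose best GATA6 motif has its centre at a given distance from the summit (x axis, bp, bins of 20 bp) for the 5 sets. All sets peak around the summit, and the bin from 0 to 20 bp holds 13.9% of the Transient GATA6-only naive regions.

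There were 41 Transient GATA6-only naive regions with no GATA6 motif at all, 25 of which held a SOX17 motif and 32 an OCT4:SOX2 motif somewhere in the region. One of them was the only Transient GATA6-only naive region near a listed pluripotency gene, described below.

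OCT4:SOX2 motifs were more frequent at these summits than in any of the 4 sets compared, although the rule took regions with no PTF peak called. PTF binding too weak to be called as a peak was not tested. The motif lay in 604 of 1052 summit windows (57.4%, 95% interval 54.4 to 60.4), against 39.7% in Transient GATA6-only regions of other states, 44.4% in Early&Constant naive regions, 39.0% in Late naive regions and 41.6% in all regions. The log2 odds were higher by 1.03 (SE 0.10, adjusted p = 1.03e-26), 0.75 (SE 0.18, adjusted p = 5.71e-05) and 1.07 (SE 0.16, adjusted p = 1.65e-11) against these first 3 sets, and by 0.92 (SE 0.08, adjusted p = 1.34e-28) against all remaining regions. These calls held under every alternative run for this motif, among them narrower windows, regions of middle width and no chromosome X. Windows 3 kb away held the motif in 40.2%, so it stood above its own surroundings. Late naive summits (39.0%) and their surroundings (39.3%) were alike in value. Both a GATA6 and an OCT4:SOX2 motif were present in 559 windows (53.1%), against 42.5% of Early&Constant naive windows.

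For scale, the 266 Transient naive regions that did have a PTF called at d0 held the OCT4:SOX2 motif in 83.5% of windows and a best score of 10.8 ± 3.1 (SD, n = 259 regions with a motif). Transient GATA6-only naive regions had a best OCT4:SOX2 score of 9.19 ± 2.78 (SD, n = 876). This comparison was not tested, since PTF binding is part of the rule. The most frequent best OCT4:SOX2 motifs are shown because they mark sequence shared between regions and the range of match quality, the score of each being given after its count:
in 17 regions, score 6.93: CTTTATTTTACAAAT
in 10 regions, score 10.5: CAGGGAAATGCAAAT
in 6 regions, score 11.8: ATTTGAAATGTAAAT
in 3 regions, score 7.41: CATCGAGATGCATAA
also in 3 regions, score 14.8: CTTTATAATGCTAAT

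All 17 copies of the first sequence belonged to 1 group of similar windows, described below. Outside all such groups the OCT4:SOX2 motif was present in 58.0% of 855 windows, and inside them in 54.8% of 197.

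The SOX17 motif was present in 36.2% of summit windows, close to the 32.4% of windows 3 kb away. Late naive regions held it in 44.4%, and the log2 odds in Transient naive regions were lower by -0.49 (SE 0.12, adjusted p = 7.45e-05), or -0.29 in regions of middle width. They were higher than in Transient regions of other states by 0.49 (SE 0.11, adjusted p = 1.67e-05). The difference from Early&Constant naive regions (31.7%) was 0.29, with a 95% interval from -0.07 to 0.65 (adjusted p = 0.139). ESRRB motifs were in 15.9% of windows, against 17.9% in Transient regions of other states, 16.6% in Early&Constant naive and 11.2% in Late naive regions. The log2 odds exceeded those of Late naive regions by 0.58 (SE 0.20, adjusted p = 0.00455), but not in regions of middle width (0.15, adjusted p = 0.695) or without the similar copies described below (0.43, adjusted p = 0.0748). The difference from Transient regions of other states was -0.21 (SE 0.09, adjusted p = 0.0341). It was -0.42 in windows of 100 bp and missed the threshold without chromosome X (adjusted p = 0.0538), without those copies (adjusted p = 0.0551) and without clustered errors (adjusted p = 0.125).

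Nearly all the regions were closed before induction. Of 1052, 1034 (98.3%) were classed closed and 18 moderate in untreated cells, and 0 were accessible, which allows a share of up to 0.285%. Transient GATA6-only regions in other states were closed in 50.5%, moderate in 44.2% and accessible in 5.28%. The histone state goes together with nuclease accessibility, so closure was compared within the naive state alone. There 98.6% of Early&Constant and 99.1% of Late regions were closed, and the log2 odds differed by -0.32 (95% interval -1.34 to 0.69, adjusted p = 0.551) and -1.02 (95% interval -2.11 to 0.08, adjusted p = 0.0863). In regions of middle width the difference from Late naive regions was -1.77 (adjusted p = 0.0300). Without the similar copies described below both differences turned sign, to 0.68 (adjusted p = 0.331) and 0.090 (adjusted p = 0.915). Best GATA6 scores were 10.9 ± 2.9 (SD, n = 16 with a motif) in moderate and 11.8 ± 2.2 (SD, n = 995) in closed regions, a difference of -0.91 (SE 0.59, adjusted p = 0.139). It was -0.20 (adjusted p = 0.856) in regions of middle width, -0.57 (adjusted p = 0.326) without chromosome X and -2.22 (adjusted p = 0.0309) without similar copies. Of the 18 moderate regions, 11 (61.1%) belonged to groups of similar windows, against 186 of the 1034 closed regions (17.99%).

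Summits were intergenic in 520 (49.4%), intronic in 467 (44.4%), exonic in 27 and within 1 kb of a transcript start in 38 (3.61%). Promoters made up 14.7% of Transient regions of other states, and the log2 odds of a promoter summit were lower by -2.20 (SE 0.28, adjusted p = 2.10e-14), or by -1.33 with promoters taken as 5 kb. The difference from Early&Constant naive regions (4.29%) was -0.26 (adjusted p = 0.381), or -0.43 (adjusted p = 0.00930) with promoters taken as 5 kb, and that from Late naive regions (5.98%) was -0.76 (SE 0.33, adjusted p = 0.0255). The latter missed the threshold in regions of middle width (-0.53, adjusted p = 0.276) and without similar copies (-0.58, adjusted p = 0.101). Intronic summits were rarer than in Early&Constant naive (53.0%) and Late naive regions (56.4%), by log2 odds of -0.50 (SE 0.13, adjusted p = 0.000119) and -0.70 (SE 0.13, adjusted p = 5.13e-08). The median distance to the nearest start of a protein-coding gene was 81864 bp, against 55802 bp, 55393 bp and 26166 bp in Early&Constant naive, Late naive and other Transient GATA6-only regions.

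The nearest other GATA6 region was a median of 25978 bp away (quartiles 8269 and 73785 bp), against 19020 bp in Early&Constant naive, 12741 bp in Late naive and 10609 bp in other Transient GATA6-only regions. On the log10 scale the distances were longer by 0.11 (SE 0.03, adjusted p = 6.28e-05), 0.30 (SE 0.03, adjusted p = 2.38e-25) and 0.36 (SE 0.02, adjusted p = 2.43e-62). The first of these differences was 0.08 (adjusted p = 0.162) in regions of middle width. The nearest neighbour was another Transient GATA6-only naive region in 81 cases (7.70%) and a Transient GATA6-only region of another state in 175.

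Distances were also taken to listed genes of the pluripotency network, the PrE, FGF signalling and other lineages. Of 13 pluripotency genes, 1 had a Transient GATA6-only naive summit within 100 kb of its start, and the same held for 1 of 18 PrE genes, 1 of 9 FGF signalling genes and 1 of 16 genes of other lineages. Each list thus took in 1 region (0.0951% of 1052), against 0.363%, 0.606%, 0.158% and 0.193% of all regions, and with 1 region a list nothing is read from these shares. The Transient GATA6-only naive region nearest to Pou5f1, the gene of OCT4, was chr17:35563769-35564139, 57947 bp away. In all, 11 GATA6 regions of any class lay within 100 kb of Pou5f1. The chr17 region named here was 1 of them. It was intergenic and closed and held no GATA6 motif, with a SOX17 and an OCT4:SOX2 motif in its window. Cubn, the endocytic receptor cubilin of the visceral endoderm, had chr2:13398115-13398578 at 93435 bp. This intronic region held 2 GATA6 motifs, the better of which (tatAGATAACaag, capitals as above) scored 10.3. Spry2, a feedback inhibitor of receptor tyrosine kinase signalling, had chr14:105835988-105836589 at 60462 bp, an intergenic region with 3 motifs and a best score of 8.96 (gggAGATAAAggg). Foxa1, a forkhead factor of the endoderm, had chr12:57454185-57454927 at 92361 bp, an intronic region with 5 motifs and a best score of 14.7 (ggaAGATAAGaga). Within 50 kb of a listed gene there was 0 such region.

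The summit windows were AT-rich, and they held more repeat-masked sequence than those of the 4 sets compared, though less than those of Transient naive regions with a PTF called at d0. Their GC content was 41.4 ± 5.1% (SD, n = 1052), against 48.5% in Transient regions of other states, a difference of -7.10 percentage points (SE 0.27, adjusted p = 4.93e-147). It differed from that of Early&Constant naive windows (41.0%) by 0.43 points (adjusted p = 0.119) and was above that of Late naive windows (40.2%) by 1.22 points (SE 0.25, adjusted p = 1.66e-06). Among windows without masked bases this last difference was 0.34 (adjusted p = 0.447). Windows 3 kb away had a GC content of 40.7%.

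Bases soft-masked as repeats in the reference made up 31.4 ± 33.3% of a window (SD, n = 1052). In the 266 Transient naive regions with a PTF called at d0 they made up 42.5 ± 36.7% (SD), which was not tested. The difference was 14.3 percentage points from Transient regions of other states (SE 1.4, adjusted p = 2.38e-25), 7.96 from Early&Constant naive regions (SE 2.07, adjusted p = 0.000186) and 12.8 from Late naive regions (SE 1.4, adjusted p = 7.11e-20). Surrounding windows 3 kb away were masked over 32.4% around Transient GATA6-only naive regions and over 33.2%, 29.2% and 27.9% around Early&Constant naive, Late naive and other Transient GATA6-only regions. The Transient naive summits were thus masked to about the level of their surroundings, and the summits of the other sets, at 23.5%, 18.6% and 17.2%, below theirs.

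Some of the windows had similar sequence. The windows of 197 of the 1052 regions (18.7%, 95% interval 16.5 to 21.2) matched the window of another at 80% identity or more over at least 100 bp, and they fell into 32 groups, 9 of which had 6 or more such regions. The 4 largest had 45, 30, 18 and 11 and held 104 together. Windows of all sets were searched only against these 1052, so copies shared within another set alone were not counted. The shares of the other sets are therefore not measures of how much sequence they share among themselves. A match to one of the 1052 windows was present in 8.23% of Early&Constant naive, 1.96% of Late naive and 3.79% of other Transient GATA6-only windows. It was present in 84 of the 266 windows (31.6%) of Transient naive regions with a PTF called at d0, so shared copies were not particular to the GATA6-only set. Without all of these matching regions the difference in masked share from Early&Constant naive regions was 0.76 points (adjusted p = 0.612), that from Late naive regions 2.46 points (adjusted p = 0.0107) and that from Transient regions of other states 4.75 points (adjusted p = 6.67e-09). Leaving them out lowers the masked share of the Transient naive set most, by construction.

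**Figure D4:**
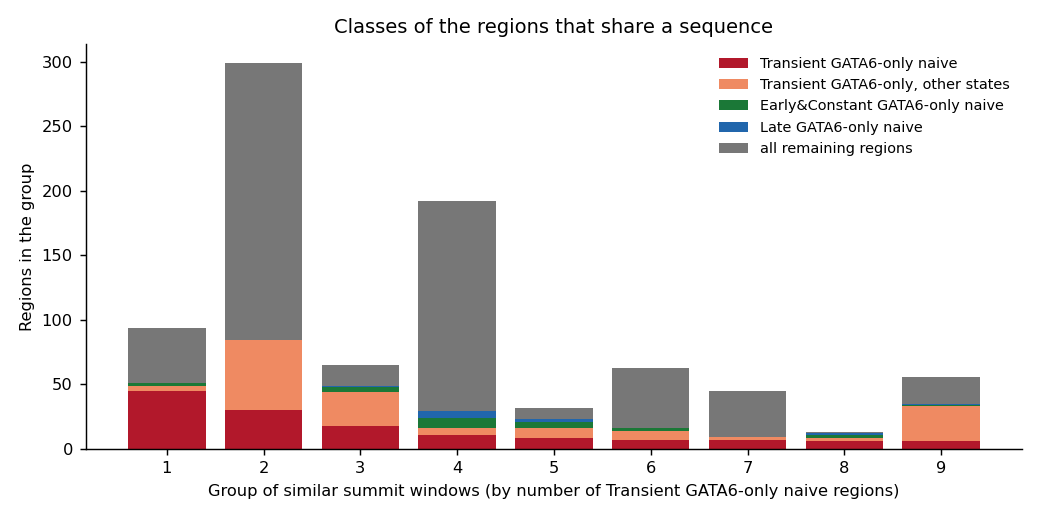
Bars count all GATA6 regions (y axis) in each of the 9 groups of similar summit windows that hold 6 or more Transient GATA6-only naive regions, split by class. Group 1 is mostly Transient, with 45 of its 94 regions in the Transient GATA6-only naive set, and groups 2 and 4 are mostly made of remaining regions. Groups were built from matches to the Transient GATA6-only naive set, which raises its share in them by construction.

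Copies from the 3 largest groups are aligned on the GATA6 motif that was the most frequent best motif of the group, in capitals, with 24 bases on either side. They show the same motif in the same flanking sequence on different chromosomes of GRCm38. The first group was:
chr1:17581647-17581707 (+ strand): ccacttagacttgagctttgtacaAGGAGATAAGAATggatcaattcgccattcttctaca
chr3:123366905-123366965 (+ strand): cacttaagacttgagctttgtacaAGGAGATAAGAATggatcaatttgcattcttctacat
chr4:23641710-23641770 (- strand): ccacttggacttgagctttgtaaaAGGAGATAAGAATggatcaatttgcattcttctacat
chr4:88854390-88854450 (+ strand): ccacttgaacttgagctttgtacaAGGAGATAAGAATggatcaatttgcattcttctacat

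This group held 94 regions in all, 73 of them Transient, 13 Early&Constant and 8 Late, and 75 in the naive state. Of all 42403 regions, 16285 were Transient and 7631 naive. Every group holds only Transient GATA6-only naive regions and regions matching them, which raises its Transient and naive counts by construction. The motif in capitals was the best motif of 25 of the 45 Transient GATA6-only naive regions of this group and of 47 of all its regions. These 45 windows were masked over 95.8% on average and lay on 17 chromosomes. Pairs of them that passed the match threshold had a median identity of 86.0% and a median alignment of 151 bp. Not every pair in a group need pass it. An OCT4:SOX2 motif was in 27 of the 45 and a SOX17 motif in 29. At 29 of the 94 regions a PTF was called at d0. The copies of the second group read:
chr1:97044986-97045046 (- strand): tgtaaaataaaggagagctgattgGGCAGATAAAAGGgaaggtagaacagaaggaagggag
chr4:16766541-16766601 (+ strand): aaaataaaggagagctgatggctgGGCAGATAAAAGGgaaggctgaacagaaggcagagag
chr6:17959441-17959501 (- strand): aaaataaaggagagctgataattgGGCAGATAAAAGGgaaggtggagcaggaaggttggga
chr7:53601722-53601782 (+ strand): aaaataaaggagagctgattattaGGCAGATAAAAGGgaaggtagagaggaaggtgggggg

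This group held 299 regions, 283 of them (94.6%) Transient, and a PTF was called at d0 at 201. Of its 30 Transient GATA6-only naive regions, 29 (96.7%) had an OCT4:SOX2 motif in the window, and 17 had as their best such motif the low-scoring sequence given above. The motif in capitals was the best GATA6 motif of 14 of these 30 regions and scored 10.2. In the third group the copies read:
chr1:53441408-53441468 (- strand): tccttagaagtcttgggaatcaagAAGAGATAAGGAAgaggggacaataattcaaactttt
chr1:174473300-174473360 (- strand): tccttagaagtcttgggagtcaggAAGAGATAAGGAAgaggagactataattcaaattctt
chr3:119040601-119040661 (+ strand): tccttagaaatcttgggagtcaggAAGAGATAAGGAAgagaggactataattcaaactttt
chr12:15036840-15036900 (- strand): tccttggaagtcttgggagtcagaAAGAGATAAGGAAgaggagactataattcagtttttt

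It held 65 regions, 51 of them Transient, of which 18 were Transient GATA6-only naive. Among these 18, the motif in capitals was the best GATA6 motif of 6, and 6 had an OCT4:SOX2 motif in the window. The fourth group went the other way, with 124 of its 192 regions Early&Constant, 128 bound by SOX17 and 11 in the Transient GATA6-only naive set, whose best GATA6 motifs had a median score of 7.28. Regions of 1 group share their sequence and are not independent of each other. How uniquely reads map to such copies was not tested, and the authors kept reads of high mapping quality.

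The naive state was unevenly spread over chromosomes. Of the 170 Transient GATA6-only regions on chromosome X, 82 (48.2%, 95% interval 40.8 to 55.7) were in the naive state, against 970 of 8767 on autosomes (11.1%). Chromosome 8 had the lowest share, 16 of 463 (3.46%, 95% interval 2.14 to 5.54), and the other 18 autosomes lay between 6.75% and 16.6%. The histone state is part of the rule, so this is a description. It was not particular to Transient GATA6-only regions, since the naive share over all 42403 regions was 57.4% on chromosome X and 10.2% on chromosome 8, against 16.8% over the autosomes. Among Transient GATA6-only regions the poised enhancer state made up 2.35% on chromosome X, 34.3% on chromosome 8 and 23.5% elsewhere. Chromosome X thus held 7.79% of the Transient GATA6-only naive regions and 2.92% of all regions.

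**Figure D5:**
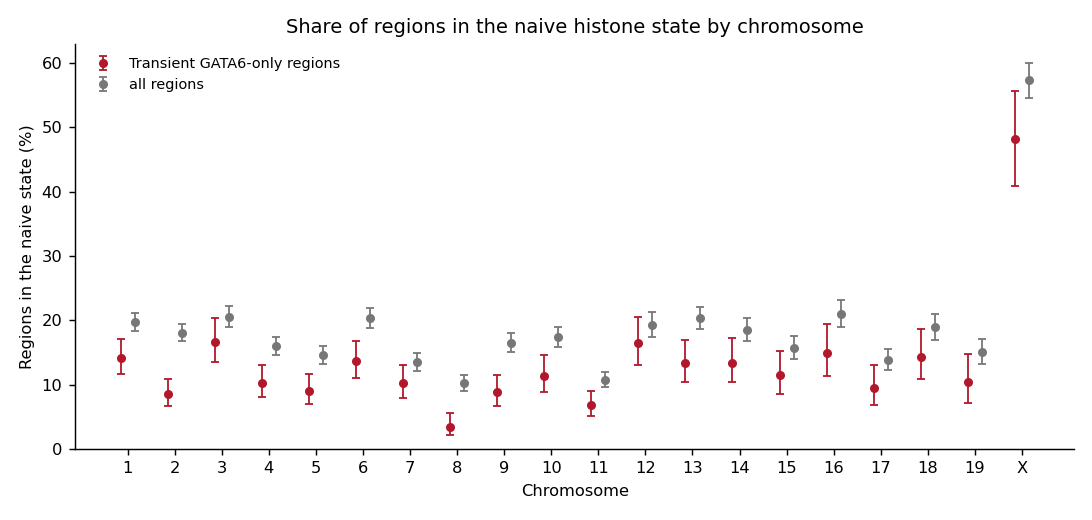
Points give the share of regions in the naive histone state (y axis, %) on each chromosome for Transient GATA6-only regions (red) and all regions (grey), with 95% Wilson intervals. Chromosome X stands apart at 48.2% and 57.4%, and chromosome 8 has the lowest share in both sets, 3.46% and 10.2%.

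The 82 regions on chromosome X had a GATA6 motif in 91.5% of regions and 90.2% of summit windows, against 96.5% and 92.5% of the 970 on autosomes. Their OCT4:SOX2 share was 54.9%, against 57.6%. Their best GATA6 score was 11.2 on average, against 11.8, and 9.76% of their windows matched another window of the set, against 19.5%. Depth and copy number of the public histone data on these chromosomes were not tested.

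After knockdown of Oct4 during GATA6 induction, the authors' call of GATA6 binding was decreased at 54 of the 1052 regions (5.13%, 95% interval 3.96 to 6.64) and unchanged at 998. The background was 6.25% of all regions called decreased and 8.57% called increased, so the share of decreased regions was near the background. Increased binding was called at 0 of the 1052, which allows up to 0.285%. Few Transient regions of any kind were called increased, 0.140% of Transient GATA6-only regions in other states and 0.289% of all Transient regions, where 3.37% and 7.28% were called decreased. Late naive regions were called increased in 8.11% and Early&Constant naive regions in 0.858%, and decreased in 0.512% and 6.69%. These calls rest on GATA6 binding, which the rule used, so no test is given.

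Within the Transient GATA6-only naive set, an OCT4:SOX2 motif lay in the summit window of decreased regions in 18 of 54 (33.3%, 95% interval 22.2 to 46.6) and of unchanged regions in 586 of 998 (58.7%, 95% interval 55.6 to 61.7). This split was looked at after the data were seen and is a description. Regressions on it were run, but the call rests on GATA6 binding, which the rule used, so their p-values are not used. The best GATA6 score was 11.9 in decreased and 11.8 in unchanged regions. Decreased regions were wider, with a median of 628.5 against 491 bp, and held 4.83 against 3.15 GATA6 motifs on average. The part of region width and binding strength in the call was not tested.

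Of the 10 decreased regions with the highest best scores, all were closed and their best scores ran from 13.8 to 15.0. The 2 with the highest score shared the best motif tgcAGATAAGaaa, which scored 15.0. One, chr13:22381866-22382317, lay in the vomeronasal receptor gene Vmn1r199, within 1 kb of a transcript start, and had an OCT4:SOX2 motif in its window. The other, chr13:71826826-71827674, lay in an intron of Gm40999 and held 7 GATA6 motifs. Further decreased regions lay in introns of Kdm2b, a histone demethylase that recruits Polycomb complexes to CpG islands (chr5:122913195-122913845), and Rora, an orphan nuclear receptor (chr9:69345582-69346079). The other 6 were intergenic, at chr1:168705554-168706263, chr4:75844178-75845613, chr6:68324222-68325037, chr7:124861358-124861981, chr7:138045621-138046599 and chr15:69186157-69186653. An OCT4:SOX2 motif lay in the window of 4 of the 10.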

How the data were processed

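According to the methods of the study and the labels, the authors aligned reads to mm10 with Bowtie2, used MACS2 to call GATA6 peaks after merging replicates, and retained those that every replicate also gave. GATA6 clusters came from k-means of input-normalised log2 signal, PTF and SOX17 classes from called peaks, and knockdown calls from DESeq2 run by the authors. Histone states came from clustering of public ENCODE data of ES cells. Motif scores were deposited as FIMO log-odds scores of JASPAR matrices, and motif numbers are hits per region. The 59 signal columns and 12 motif group columns match no library of the series and were not used. The regions, gene lists and contrasts were chosen with earlier results of these data known.

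Motif matrices were recovered from the deposited best motifs and used to scan 200 bp windows of GRCm38.p6 (RefSeq) with the lowest deposited score as threshold. Summits were annotated with GENCODE M21. The named regions were the 3 with the highest best score, the 3 with the most GATA6 motifs, the nearest within 100 kb of each listed gene and the 10 best-scoring with a changed knockdown call, and none accessible at d0 existed. Regions on chromosome 18 were counted but not named. One region among the 3 with the most motifs is not reported here. Logistic and linear regression (statsmodels 0.14.6, Python 3.11.15) ran over all 42403 regions with errors clustered by chromosome and Benjamini-Hochberg adjustment over 55 contrasts. Of these, 42 had an adjusted p under 0.05. P-values were taken from a normal distribution, although chromosomes are few, so they can be too small and calls near the threshold are uncertain. Similar copies on different chromosomes were treated as independent. Regressions within the knockdown split were run apart from the 55 contrasts, and their p-values are not used. The contrasts compared the 1052 regions with 4 sets, including the 31712 regions in none of the others. The fits were run on simulated data in which regions were independent, with no chromosome effect and no shared sequence. Simulated shares were also lower than that of the GATA6 motif here. The simulation therefore checks the estimates but not the clustered errors for these data. Similar windows were found with BLAST 2.17.0. Tried as alternatives were region width, middle widths (368 to 777 bp), other window, promoter and motif measures, and leaving out chromosome X, clustering, similar copies or masked windows, the last 2 chosen after seeing the data.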

Additional observations from a re-analysis of the deposited data

How the results depend on the processing

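No paired analysis was possible because no library of the series entered a test, and the contrasts were between regions. Of 315 comparisons of a result with an alternative, 285 kept direction and side of the threshold. With region width as a covariate, log2 odds were 0.38 (GATA6 motif, against Late naive), 0.22 (ESRRB, against remaining regions, now called) and 0.044 (motif within 50 bp, against other Transient regions, sign turned). In regions of middle width they were 0.49 (GATA6 motif, Late naive), 0.15 (ESRRB, Late naive), -0.53 (promoter, Late naive), -1.77 (closed, Late naive, now called), 0.10 (motif within 50 bp, other Transient, sign turned) and 0.023 (intronic, remaining, sign turned), and the log10 distance to the nearest region differed from Early&Constant naive by 0.076. Without chromosome X they were -0.95 (GATA6 at the summit, Early&Constant naive) and -0.21 (ESRRB, other Transient), and the latter was also lost, at -0.21, without clustering. Without similar copies they were -0.28 and 0.43 (ESRRB, other Transient and Late naive), -0.58 (promoter, Late naive), 0.68 and 0.090 (closed, Early&Constant and Late naive, signs turned) and 0.037 (intronic, remaining, sign turned). There the masked share differed from Early&Constant naive by 0.76 points, and the score of moderate from closed regions by -2.22 (now called). A 100 bp window gave 0.41 (SOX17, Early&Constant naive, now called), the mean score 0.18 (Early&Constant naive, sign turned), motifs per kb 0.033 (Late naive), promoters within 5 kb -0.43 (Early&Constant naive, now called), and windows without masked bases a GC difference of 0.34 points (Late naive). At 50 kb each gene list had 0 regions in place of 1. Why these results changed was not tested. Setting accessible against the other classes gave no value, since 0 naive GATA6-only regions were accessible. The classes carry no depth or error, the contrasts are between sets that also differ in ways not modelled, and regions on 1 chromosome or of 1 sequence group are not independent.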
